A study of Mus musculus with 3 samples.

Results

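The regions described here are reproducible MEIS2 peaks whose summits lie inside protein-coding genes, away from the gene's ends but not deep in it. A member is a peak of MEIS2 replicate 1 on chromosomes 1 to 19 that shares at least 1 bp with a peak of MEIS2 replicate 2 and none with a peak of the no-antibody library. Its summit lies inside a protein-coding RefSeq gene, over 1 kb from every gene end and at most 50 kb from an end of that gene (positions are mm10). There were 10419 members among 44673 reproducible peaks, or 23.3% (95% Wilson interval 22.9% to 23.7%, counting error only). The 3 peak lists together held 170729 peaks. The rule used position and overlap and no fold enrichment value, but asking for overlap between replicates still favoured high and wide peaks. With replicate 1 peaks in 10 equal groups by fold, eligible ones repeated in 29.2% of the lowest group and 99.1% of the highest. With replicate 2 left out, the median fold was 5.32 and the median width 275 bp, against 6.39 and 345 bp for members in replicate 1. The heights and widths below are therefore partly set by the rule.

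The study profiled MEIS2 by CUT&Tag, a method that brings the Tn5 transposase to an antibody on chromatin and inserts sequencing adapters into nearby DNA. Cells came from the lateral ganglionic eminence (LGE), the embryonic zone that gives rise to the projection neurons of the striatum. The embryos were wild-type CD1 mice at E14.5. Both MEIS2 libraries used a mouse polyclonal antibody, and the control library had no primary antibody. Each library was made from 100000 cells, and the labels name no sort, transgene or treatment, nor whether the libraries came from separate litters. After removal of repeated positions the caller used 7618406 of 74259592 tags in MEIS2 replicate 1, 6559629 of 79760948 in MEIS2 replicate 2 and 6337375 of 72763762 without antibody. The file headers give redundant rates of 0.90, 0.92 and 0.91, although the input names there carry a mark for removed duplicates. These gave 73347, 76565 and 8670 peaks on chromosomes 1 to 19.

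MEIS2 belongs to the TALE class of homeodomain transcription factors and binds DNA together with PBX and other homeodomain partners at sites with the core TGACAG. In the developing striatum it is known as a factor of newborn projection neurons. Introns near gene ends can hold enhancers and alternative transcription start sites. A start site inside an annotated gene can be the beginning of a shorter transcript of that gene. RefSeq start sites with sequence were listed for 79.2% of the eligible genes, and 10049 members lay on a chromosome with listed starts.

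Some members lay near listed start sites, a property that the rule did not use. A gene's main start was not told apart from alternative ones, and some listed starts lay within 1 kb of a gene end. Of the 10049 members, 1144 (11.4%, interval 10.8% to 12%) were called with a summit at most 1 kb away from a listed start. Among all eligible replicate 1 peaks clear of the control list, the share was 7.80% (1457 of 18691). In genes with listed starts, eligible bases that near a start came to 4.983 Mb nearer the 5′ end and 1.349 Mb nearer the 3′ end. Those farther from starts came to 221.2 and 225.2 Mb. Only 8201 of all 10419 members lay in a gene with a listed strand and start, so unlisted starts are missed. The start belonged to the host gene itself in 1126 of the 1144. The sequences below show 6 such starts, as windows from 250 bases before to 50 bases after the start, from RefSeq on GRCm38.p6, written 5′ to 3′ on the gene's strand. They were chosen after their values were seen: 5 belong to genes of the lists used below, and Arrdc3 was added because its member had a higher fold and its window holds the MEIS core. Capitals mark TGACAG or its complement on the other strand, CTGTCA. A window with no match is in lower case throughout.
Meis2, chr2:116064570-116064869, minus strand: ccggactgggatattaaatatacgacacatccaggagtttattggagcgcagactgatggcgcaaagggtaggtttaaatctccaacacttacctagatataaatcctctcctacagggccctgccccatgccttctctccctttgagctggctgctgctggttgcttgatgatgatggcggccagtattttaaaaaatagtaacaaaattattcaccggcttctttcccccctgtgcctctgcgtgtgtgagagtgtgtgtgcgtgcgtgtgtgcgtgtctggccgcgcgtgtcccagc
Meis3, chr7:16175145-16175444, plus strand: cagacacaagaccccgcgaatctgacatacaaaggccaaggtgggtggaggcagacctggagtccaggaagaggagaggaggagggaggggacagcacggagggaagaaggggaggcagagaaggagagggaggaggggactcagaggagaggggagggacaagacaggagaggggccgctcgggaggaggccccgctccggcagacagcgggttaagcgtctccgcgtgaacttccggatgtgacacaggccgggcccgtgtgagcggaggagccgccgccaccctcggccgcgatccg
Dlx1, chr2:71529195-71529494, plus strand: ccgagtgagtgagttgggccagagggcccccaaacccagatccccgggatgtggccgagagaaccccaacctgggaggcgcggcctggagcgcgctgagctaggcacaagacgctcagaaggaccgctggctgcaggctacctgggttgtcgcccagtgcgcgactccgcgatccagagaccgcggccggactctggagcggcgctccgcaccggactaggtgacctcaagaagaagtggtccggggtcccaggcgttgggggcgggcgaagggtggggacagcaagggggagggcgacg
Hopx, chr5:77095218-77095517, minus strand: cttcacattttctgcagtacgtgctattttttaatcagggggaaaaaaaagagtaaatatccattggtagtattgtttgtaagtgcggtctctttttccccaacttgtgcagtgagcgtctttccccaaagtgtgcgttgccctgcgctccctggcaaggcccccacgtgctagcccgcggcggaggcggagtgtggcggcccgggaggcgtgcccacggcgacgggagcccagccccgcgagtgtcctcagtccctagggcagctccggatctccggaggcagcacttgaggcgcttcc
Dnmt1, chr9:20952574-20952873, minus strand: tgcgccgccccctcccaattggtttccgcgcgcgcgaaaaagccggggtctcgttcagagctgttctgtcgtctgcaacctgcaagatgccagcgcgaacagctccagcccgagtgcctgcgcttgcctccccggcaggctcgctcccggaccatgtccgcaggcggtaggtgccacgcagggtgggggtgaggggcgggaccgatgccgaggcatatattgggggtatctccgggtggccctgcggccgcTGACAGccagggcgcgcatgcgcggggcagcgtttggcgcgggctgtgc
Arrdc3, chr13:80885845-80886144, plus strand: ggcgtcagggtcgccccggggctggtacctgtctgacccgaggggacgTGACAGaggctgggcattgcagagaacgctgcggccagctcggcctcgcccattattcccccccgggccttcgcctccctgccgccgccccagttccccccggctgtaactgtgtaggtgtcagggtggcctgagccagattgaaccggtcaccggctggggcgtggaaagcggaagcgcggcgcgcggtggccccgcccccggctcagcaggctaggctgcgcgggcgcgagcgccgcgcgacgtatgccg

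Meis2 itself, whose product the antibody was raised against, held the first of these members with its summit 26 bp downstream of the start. The fold enrichment, the caller's ratio of the tag pileup to the locally expected pileup, was 4.82 in replicate 1 and 4.97 in replicate 2. The window has 51.0% G and C and 13 CpG dinucleotides, the lowest values of the 6. Meis3, a TALE paralog, had a summit 9 bp downstream of its start, with folds of 7.30 and 5.89. Dlx1, a homeobox gene that drives GABAergic differentiation, had a summit 45 bp downstream, with folds of 5.33 and 5.36.

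Hopx, an atypical homeodomain protein known from radial glia, had a summit 18 bp upstream of the start. Its folds were 9.10 and 5.10 with pileups of 20 and 7, so replicate 2 was well below replicate 1 there. Dnmt1, the maintenance DNA methyltransferase, had a summit 67 bp upstream of a start, with folds of 7.72 and 7.12, in a window with 69.7% G and C. Arrdc3, an arrestin-family adaptor, had a summit 83 bp upstream and folds of 10.6 and 8.96, in the window richest in G and C of the 6 (72.7%, 35 CpG). Only the Dnmt1 and Arrdc3 windows hold the core, once each.

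The core was no more frequent in these windows than in others. Among all 31365 listed windows on chromosomes 1 to 19, 19% hold TGACAG on either strand. Among the 334 windows that contain a member summit it was 15% (interval 11.5% to 19.2%), against 20.1% of 2832 windows inside gene bodies without a reproducible summit. The 2 sets differ in base composition, with a median of 68.5% G and C in windows with a member summit and 53% in those without. Within windows of at least 65% G and C, 12.9% of those with a member summit and 12.2% of all other windows, those at gene ends included, hold the core. Between 55% and 65% the shares were 19.2% and 18.9%. A match is a description of the letters and not a binding site, and windows around the summits of the other members were not read because no genome sequence was used here.

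Base composition and peaks at internal starts moved together closely. There were 3176 listed starts inside gene bodies and over 1 kb from every gene end, and 1233 of them (38.8%) had a reproducible summit within 1 kb. The no-antibody library had a summit near 4 of them (0.126%). When windows were grouped by G and C, a reproducible summit lay near 95.1% of starts at 65% and over (559 of 588), 48.4% between 55% and 65%, 16.4% between 45% and 55% and 5.97% under 45%. Windows with a member summit had a median of 28 CpG dinucleotides, against 6 in body windows without one. Starts within 1 kb of a gene end had a reproducible summit at a similar rate, 41.6% of 26824. Base composition is read here only at listed starts, and its part in the peak calls was not tested.

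**Figure D1:**
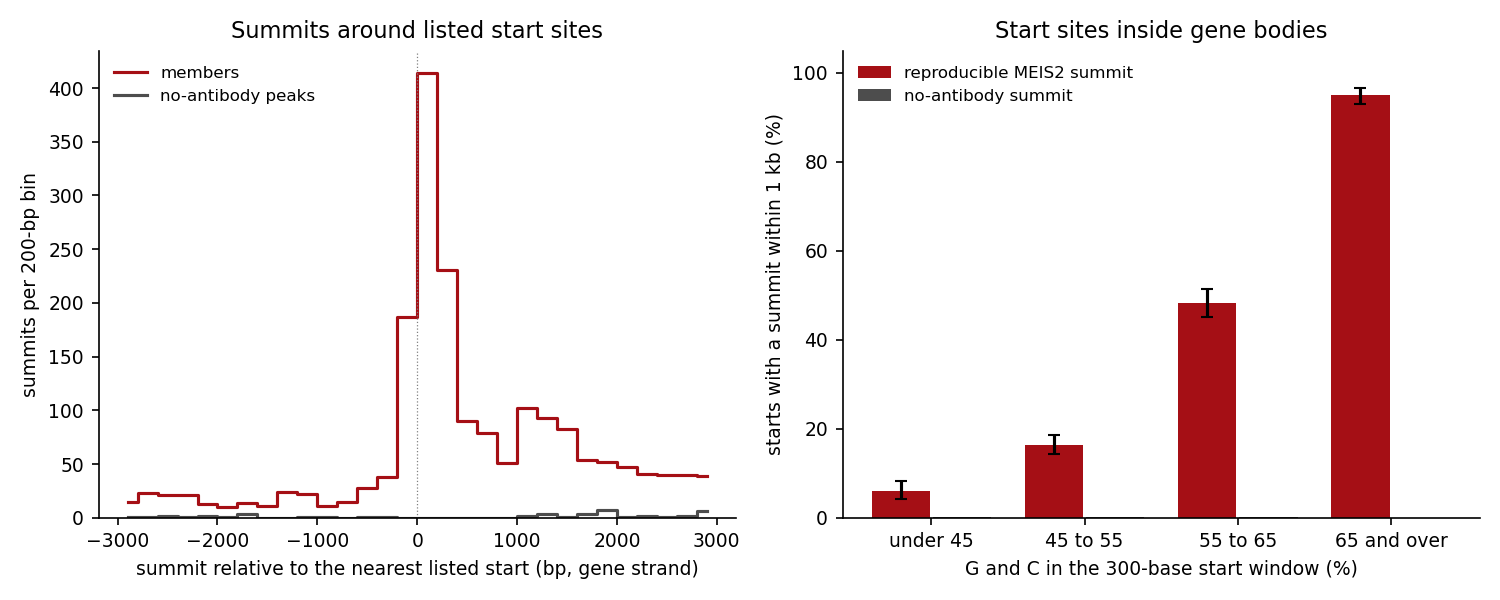
Left, number of summits in 200-bp bins by distance from the nearest listed start, for members and no-antibody peaks in the same eligible bases. Right, share of starts inside gene bodies with a summit within 1 kb, by G and C content of the 300-base window, with 95% Wilson intervals for reproducible MEIS2 peaks. The share is 95.1% in windows with at least 65% G and C, and the no-antibody bars are too low to see.

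Summits were concentrated just downstream of the starts. The first 200 bp downstream held 414 members, against 187 in the 200 bp upstream. Bins at the far ends of the window held 15 members (3000 to 2800 bp upstream) and 39 members (2800 to 3000 bp downstream). No no-antibody summit lay within 200 bp of a start on either side. Of the 1144 members within 1 kb, 24.4% were upstream. The step up beyond 1000 bp downstream follows from the rule, since starts at a gene end become eligible only from there.

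Members at starts were broader and stronger than other members. Their median width was 602.5 bp in replicate 1 and 478.5 bp in replicate 2, against 329 bp and 279 bp for the other 9275 members. Median folds were 7.18 and 6.31, against 6.25 and 5.63. The other members include those on the chromosome with no listed starts and further ones in genes without a listed start on other chromosomes. The widest members leaned the same way, since 166 of the 432 members at least 1000 bp wide lay within 1 kb of a listed start. The strongest members did not. None of the 100 members with the highest lower fold of the 2 replicates was near a listed start, and 5.20% of the first 1000 were. Some of these strongest members lay in genes without a listed start, where none could be found. No test is attached to these or the following differences between groups of peaks, since peaks of 1 library are not biological replicates; each value is given for both MEIS2 libraries where they allow it.

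As a class, members were the weakest of the 6 position classes of reproducible peaks. Their median fold was 6.39 in replicate 1 (quartiles 5.00 and 8.44) and 5.74 in replicate 2 (4.53 and 7.52). The other classes had medians of 7.11 to 8.23 in replicate 1 and 6.33 to 7.34 in replicate 2. The lowest and highest members had folds of 1.85 and 25.9 in replicate 1 and of 1.93 and 26.3 in replicate 2. Median pileups, the tags stacked at the summit, were 15 and 11. The locally expected pileup that divides the fold was also higher at members, with a replicate 1 median of 1.32, than in the 4 classes away from gene ends inside and outside genes (0.894 to 1.05), and close to that at gene ends (1.38). In replicate 2 the medians were 0.923 at members, 0.907 at gene ends and 0.713 to 0.859 in the other 4 classes. Members were thus highest in replicate 2 and gene ends in replicate 1. What part the expected pileup has in the lower folds was not tested.

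**Figure D2:**
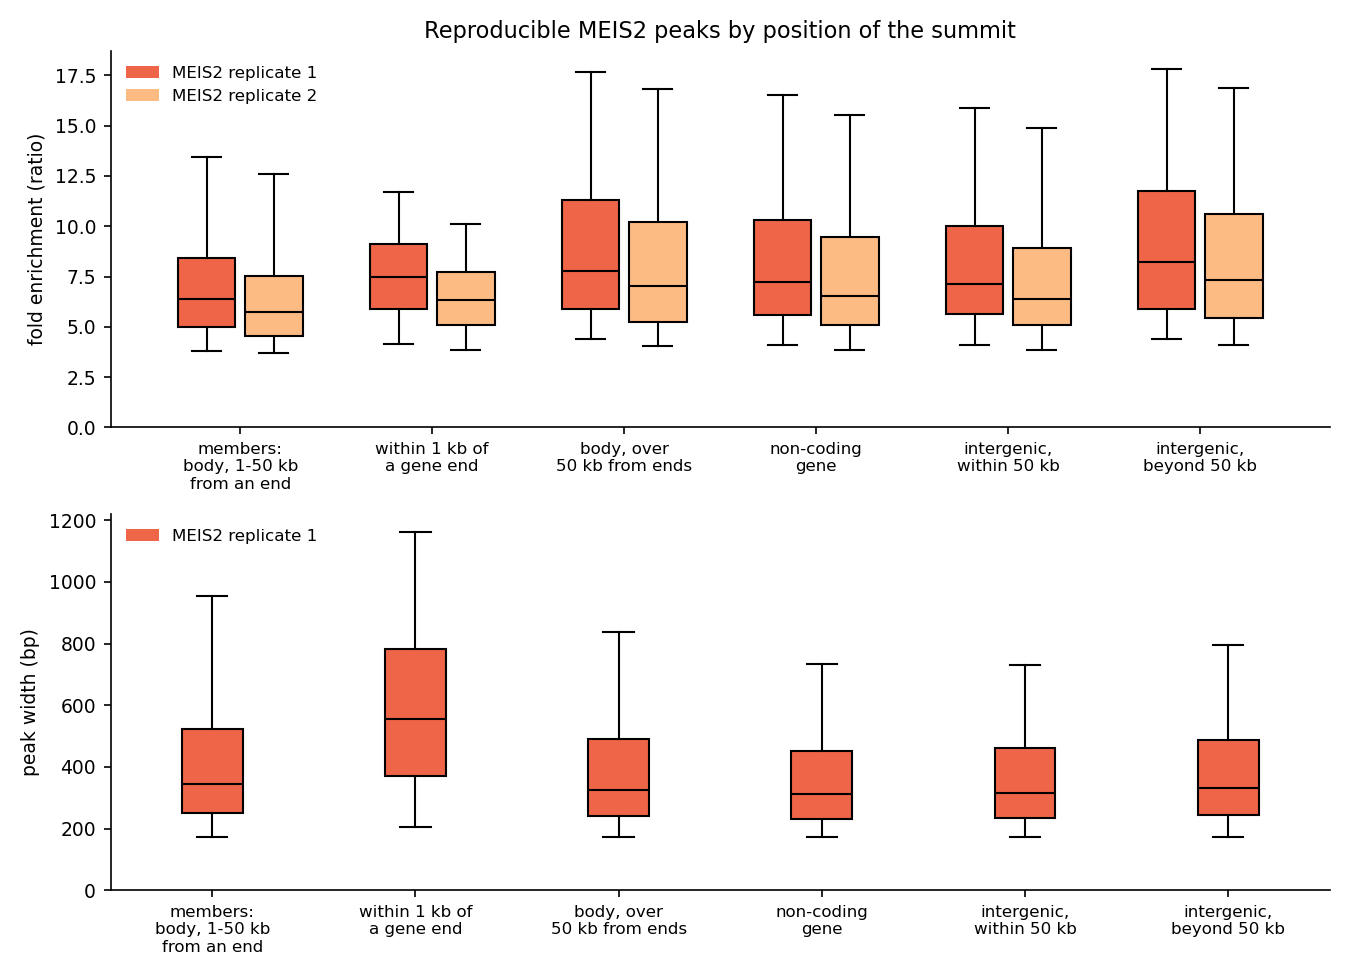
Boxes give the median and quartiles, and whiskers the 5th and 95th percentiles, of fold enrichment (top, ratio, both MEIS2 replicates) and of peak width in bp (bottom, replicate 1) for the 6 classes of reproducible peaks. Members, at the left, have the lowest median folds, and peaks within 1 kb of a gene end are the widest.

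The replicates gave similar folds for most members. Folds were within 1.5 times of each other in 85.2% of members, and 63.7% had the higher value in replicate 1. The Spearman correlation between replicates across members was 0.68 (10419 regions of 1 pair of libraries, given as a description). The replicate summits lay a median of 46 bp apart, and 73.8% were within 100 bp. With a 50% reciprocal overlap, 81.7% of the members would keep their strongest partner.

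Peaks in the members' territory had the lowest repeat share of the 6 classes from replicate 1 to replicate 2. Of 19271 replicate 1 peaks in the eligible bases and clear of the control list, 54.1% were found again in replicate 2, against 64.6% over all of chromosomes 1 to 19. The other classes ranged from 61.5% deep in genes to 75.7% at gene ends. In the opposite direction the order was different: 63.0% of 16909 replicate 2 peaks repeated, above the 51.6% to 56.5% of the classes away from gene ends and below the 87.2% at gene ends. With the peaks of each list in 10 equal groups by fold, eligible replicate 1 peaks repeated in 29.2% of the lowest group and 99.1% of the highest. Peaks at other positions repeated in 38% and 99.3% of the same groups. For replicate 2, eligible peaks repeated in 48.5% of the lowest group and 96.6% of the highest, and peaks elsewhere in 41.9% and 96.3%. In replicate 1 the share of eligible peaks that repeated was higher in each group than in the group below. In replicate 2 it was not, with the lowest share, 41.3%, in the group with folds of 4.95 to 5.10.

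Within genes, members were densest close to the ends. The eligible bases came to 574.5 Mb and held 18.1 members per Mb, against 2.00 no-antibody peaks per Mb. At 1 to 2 kb from the nearer end of the host gene there were 46.5 members per Mb. The density was 23.1 at 2 to 5 kb, 18.5 at 5 to 10 kb, 16.0 at 10 to 20 kb and 12.9 at 20 to 50 kb. All peaks of replicate 1 and all peaks of replicate 2 fell off in the same order, to 25.5 and 24.8 per Mb in the outermost band. No-antibody peaks ran the other way, with 0.95 per Mb at 1 to 2 kb and 2.52 at 20 to 50 kb.

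Only the strongest members were denser far from the ends than close to them. Members whose lower fold was under 4 had 8.61 per Mb at 1 to 2 kb and 1.39 at 20 to 50 kb. Between the same bands, lower folds of 4 to 6 fell from 23.4 to 5.80 per Mb. Lower folds of 6 to 8 fell from 10.2 to 2.59, and those of 8 to 10 from 3.55 to 1.37. The 832 members with a lower fold of at least 10 had 0.797 per Mb at 1 to 2 kb and 1.77 at 20 to 50 kb. Median replicate 1 folds were accordingly 5.89 in the innermost band and 7.06 in the outermost. The median width was 485 bp at 1 to 2 kb and 319.5 bp at 20 to 50 kb. Members near a listed start were part of the inner excess, and without them the density was 33.4 per Mb at 1 to 2 kb and 12.3 at 20 to 50 kb.

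**Figure D3:**
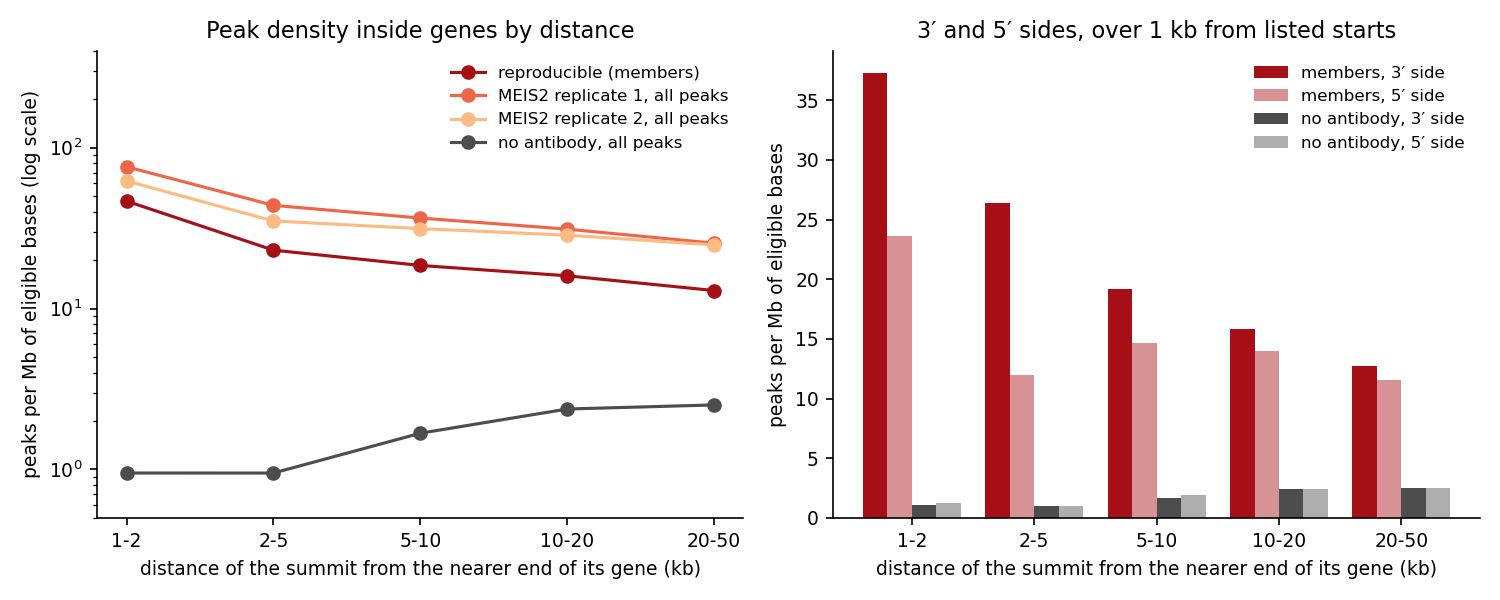
Left, peaks per Mb of eligible bases (log scale) by distance from the nearer gene end, for members, all peaks of each MEIS2 replicate and no-antibody peaks. Right, members and no-antibody peaks per Mb on the 3′ and 5′ sides of genes, away from listed starts. Members are denser on the 3′ side in every band (26.4 against 12 per Mb at 2 to 5 kb). No-antibody peaks are nearly even, but few (33 and 32 at 2 to 5 kb).

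Away from start sites, the 3′ side of genes carried more members than the 5′ side, where a side is the set of eligible bases nearer to that end. Over 1 kb from listed starts there were 18.2 members per Mb on the 3′ side and 13.4 on the 5′ side. The gap was widest at 2 to 5 kb, with 26.4 per Mb on the 3′ side and 12 on the 5′ side, and narrowest at 20 to 50 kb, with 12.7 and 11.5. Each replicate showed it alone: all replicate 1 peaks had 53.8 and 23.0 per Mb at 2 to 5 kb, and all replicate 2 peaks had 40.7 and 19.9. No-antibody peaks had 0.981 and 0.980 there, from only 33 and 32 peaks. Median folds of the members in that band were alike on the 3′ and 5′ sides, 5.59 and 5.53 in replicate 1.

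The side difference shrank among stronger peaks. Where only peaks with a −log10 q-value of at least 5 were used, the densities at 2 to 5 kb were 11.9 per Mb on the 3′ side and 6.18 on the 5′ side, but at 10 to 20 kb they were 8.77 and 8.96, so the order turned round in that band. Within 1 kb of a listed start the sides were reversed, with 108.2 members per Mb on the 3′ side and 199.9 on the 5′ side. Both effects together left 48.3% of the 8201 members with a listed strand on the 5′ side, and 53.0% of 4781 with a −log10 q-value of at least 5, which turns the majority to the 5′ side. Base composition of the sides was not measured, and its part was not tested.

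Members were spread over many genes. At least 1 member lay in 6594 of 18285 protein-coding genes with eligible bases, or 36.1%. Of these, 4180 genes held 1 member, 1464 held 2, 563 held 3, and 81 held 6 or more, up to 12. The share with a member followed gene length, from 14.0% of genes under 10 kb to 68.5% of genes over 100 kb, whereas the density ran from 45.2 to 14.7 members per Mb. Genes with a member were no more likely to have a reproducible peak at an end: 57.8% of them did, and 57.8% of the eligible genes without a member. No-antibody peaks lay in the eligible bases of 9.02% of genes with a member and 5.54% of all eligible genes. Neither comparison was matched for gene length, and longer genes offer more eligible bases to any peak. Another member lay within 10 kb of 32.8% of members.

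None of the 10 strongest members lay within 1 kb of a listed start, although the host genes Gm31255 and Shisa6 have no listed start of their own. The highest lower fold was in Jak1, a cytokine receptor kinase, at 4:101235030-101235348, with folds of 24.3 and 26.3 and pileups of 61 and 58. Next came Stx8, an endosomal SNARE, with 23.7 and 23.6. The predicted genes Gm20385 and Gm31255, on the same stretch of chromosome 5, had 23.4 and 23.1, and 24.9 and 22.6. Pam, which amidates neuropeptides, had 23.0 and 22.9. Astn1, a neuronal protein of glia-guided migration, had 23.8 and 22.4.

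The rest of the first 10 were Rubcn (22.7 and 22.5), an autophagy regulator, Smarcal1 (24.6 and 22.3), a DNA annealing helicase, Galnt7 (22.2 and 23.8), a glycosyltransferase, and Shisa6 (22.1 and 23.4), an AMPA receptor auxiliary protein. The first 100 members had a median of 20.9 kb to the nearer gene end, against 9.11 kb for all members, and median pileups of 58 and 56. A no-antibody summit lay within 10 kb of 16 of the 100, against 4.91% of all members.

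Genes with the most members included a locus with low folds. Flg, the epidermal filaggrin gene made of tandem repeats, held 12 members in 15.1 kb of eligible bases, with median folds of 2.34 and 2.47 beside median pileups of 83 and 66. Cwc22, a splicing factor gene, and Ccl21b, a chemokine gene, held 10 each. Gm38666 and Gm38667, gene models that overlap each other and share most of their members, held 9 each, and these members also lay in clustered protocadherin genes. No-antibody peaks numbered 6 in each of the Gm38666 and Gm38667 models, 3 in Ccl21b, and 0 in Flg and Cwc22. Flg, Cwc22 and Ccl21b are repeated or have near-identical copies, and how tags were shared among copies is not stated in the labels or headers, so their counts are uncertain.

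Neural and regulatory genes were also among those with the most members. Sptbn4 (a spectrin of axon initial segments) and Tnrc18 held 10 each. Ptprs, a receptor phosphatase of synaptic adhesion, held 9, with folds of 3.08 to 8.10 and 3.88 to 7.29. Its strongest member lay 42106 bp from the 5′ end, and another had its summit 4 bp from a listed internal start. No no-antibody peak lay in the eligible bases of Sptbn4 or Ptprs, and 1 lay in Tnrc18.

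**Figure D4:**
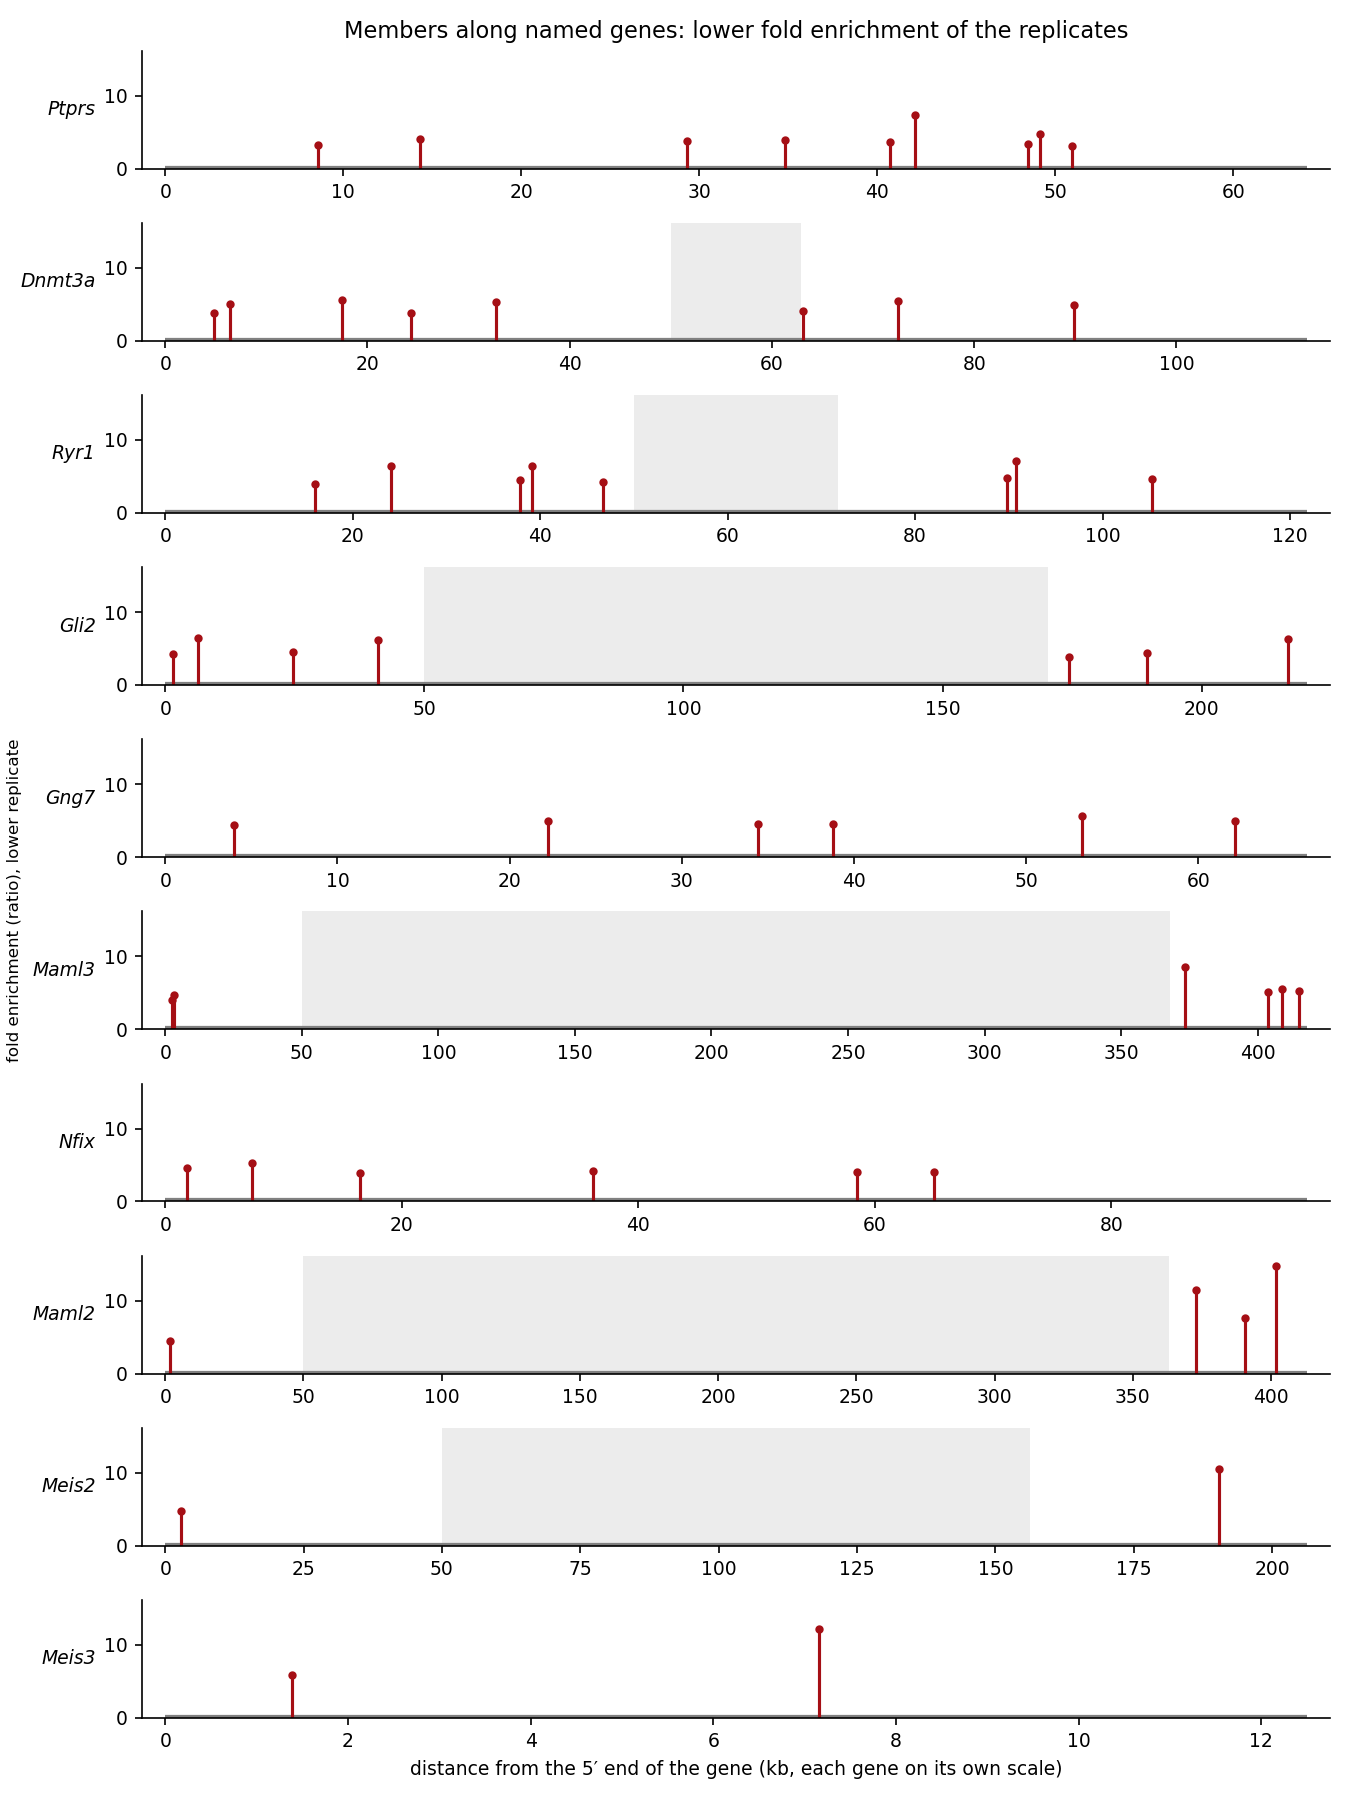
Members along 10 named genes: each line stands at a summit, and its height is the lower fold enrichment of the 2 MEIS2 replicates (ratio). Grey areas lie over 50 kb from both ends and hold no members by the rule. The genes were chosen after their values were seen. Meis2 has 2 members, Ptprs 9 and Dnmt3a 8.

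Meis2 and the Dlx genes of the study's title, with other TALE homeobox genes, held from 0 to 2 members each. Besides the member at its internal start, Meis2 held a second one at 2:115876991-115877273, with folds of 10.5 and 14.9 and pileups of 20 and 23, 15859 bp from the gene's 3′ end. No reproducible peak lay within 1 kb of an end of Meis2. Meis3 held a second member with folds of 12.2 and 12.6. Meis1 held 1, with 4.70 and 4.33, but its peaks in replicate 1 (11:19007857-19008367) and replicate 2 (11:19007590-19007904) overlapped only at their edges. Pbx3, which encodes a DNA-binding partner of MEIS proteins, and Dlx2 held none, although both had 2 gene-end peaks. Over 18 TALE homeobox genes, 11 held a member, and the density was 20.4 per Mb against 18.4 over all protein-coding genes.

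LGE regulators did not stand above the background in density. Of 28 such genes 14 held a member (36.1% of all genes did), with 16.1 members per Mb. Rarb, a retinoic acid receptor of striatal neurons, had folds of 13.8 and 10.9, and Foxp2, a forkhead factor of projection neurons, had 17.6 and 9.83. Bcl11b, a zinc finger factor of spiny neurons, held 3, with folds of 5.41 to 5.81 and 4.72 to 6.06. Six3 and Zfp503, needed for D2-type and striatal development, held 1 each, with 4.91 and 4.52 and with 3.52 and 4.49. Foxp1 held none in 98.0 kb of eligible bases, but had 4 reproducible peaks deeper in the gene and 2 at ends.

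Markers of the striatal neuron types lay on both sides of the background of 18.4 members per Mb. D2 neuron markers had 8 of 12 genes with a member (66.7%, interval 39.1% to 86.2%) and 23.4 members per Mb. D1 neuron markers had 5 of 12 (41.7%, interval 19.3% to 68.0%) and 14.5 per Mb. Adora2a, the adenosine receptor of D2 neurons, held 2 members with folds of 5.49 and 7.08 in replicate 1 and 5.07 and 8.65 in replicate 2. Eya1, a D1-lineage cofactor, held 2, of which 1 had folds of 10.9 and 10.8. Drd2 and Ebf1 held none. Among spiny neuron and GABA markers, 8 of 16 genes held a member, and Gng7, a G protein subunit of the striatum, held 6, with folds of 4.42 to 7.58 and 4.57 to 6.18.

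Notch pathway genes had the highest density of the 23 lists. They held 33 members in 15 of 22 genes, or 44.3 per Mb, with median folds of 6.12 and 4.97. Maml3 held 6 and Maml2 held 4, and both encode coactivators of the Notch transcription complex. The strongest of these, in Maml2, had folds of 14.7 and 17.5. Rbpj, the DNA-binding factor of the pathway, held 2, with folds up to 10.0 in replicate 1 and 7.01 in replicate 2. Mfng and Dll4 held none.

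A list of Sox, Pou and Nfi factors with other neural transcription factors came next, with 51 members in 21 of 27 genes and 37.2 per Mb. Of the other factors, Gli2, a transcription factor of Hedgehog signalling, held 7, Prdm16 held 5, and Gli3, Zbtb20 and Tcf4 held 2 each. Nfix held 6, with all folds between 3.96 and 6.10. Tcf4 had a member with folds of 15.3 and 15.7. Nfia held none in 96.0 kb, and had 3 reproducible peaks deeper in the gene. Chromatin modifiers had 26 of 36 genes and 28.6 per Mb. Dnmt3a, a de novo DNA methyltransferase, held 8, of which 3 lay near listed internal starts, and Chd4, a nucleosome remodeller, held 1 with folds of 12.6 and 10.5 among its 2.

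Lists of other cell types were not lower throughout. Genes of the medial ganglionic eminence (MGE) and its interneurons had 11 of 14 with a member and 27.8 per Mb, among them Nkx2-1, the MGE-defining homeobox gene, with 2 members (folds 3.86 and 5.16 in replicate 1, 4.25 and 6.80 in replicate 2). Dorsal cortical excitatory neuron genes had 8 of 17 and 23.4 per Mb, and oligodendrocyte lineage genes 8 of 12 and 32.4. Vessel and microglia genes had 3 of 13 and 4.94 per Mb. A list of liver, muscle and pancreas genes had 6 of 20 genes but 32.3 per Mb, since Ryr1, the skeletal muscle calcium release channel, alone held 8 of its 14 members. Ttn, the giant sarcomere protein gene, had a member with folds of 19.4 and 21.4. Peak lists show no expression, so they do not tell which cell types the libraries held.

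Signalling, guidance and synaptic lists fell between these. Over all genes, 36.1% held a member, at 18.4 per Mb. Among genes over 100 kb, 68.5% did, at 14.7 per Mb. Median gene lengths were 183.1 kb for axon guidance, 223.9 kb for the receptors and 294.0 kb for cadherins and contactins. The part of length in these values was not tested. Wnt and Bmp signalling genes had 19 of 27 with a member and 20.4 per Mb, with Smad4 at 18.1 and 17.2. Synaptic adhesion genes had 16 of 23 and 28.3 per Mb. Axon guidance genes had 21 of 34 and 15.7 per Mb, with Sema6a, a transmembrane semaphorin, at 18.9 and 19.2. GABA and glutamate receptors had 21 of 33 and 16.3 per Mb, with Gria4, an AMPA receptor subunit, at 16.5 and 15.2. Cadherins and contactins had 21 of 32 and 12.8 per Mb, with median folds of 7.01 and 6.38, and Cntn3, a neural adhesion molecule, at 19.2 and 14.0.

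The remaining lists were short genes or small sets. Dorsal LGE and olfactory bulb genes had 7 of 13 and 21.8 per Mb, retinoic acid genes 10 of 17 and 16.4, and radial glia and progenitor genes 6 of 19 and 18.8. Pax6, a progenitor homeobox gene, held 3, with folds of 4.55 to 5.11 and 3.59 to 5.10. Ribosomal protein genes had 3 of 48 with a member but 31.6 per Mb of their small eligible territory (0.095 Mb), and all 3 members lay near a listed start. Olfactory receptor genes had 6 of 149 and 8.24 per Mb, with 7 no-antibody peaks in their eligible bases beside 7 members. The lists differ in gene length, with medians of 294.0 kb for cadherins and contactins, 12 kb for LGE regulators and 21.6 kb over all eligible genes.

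**Figure D5:**
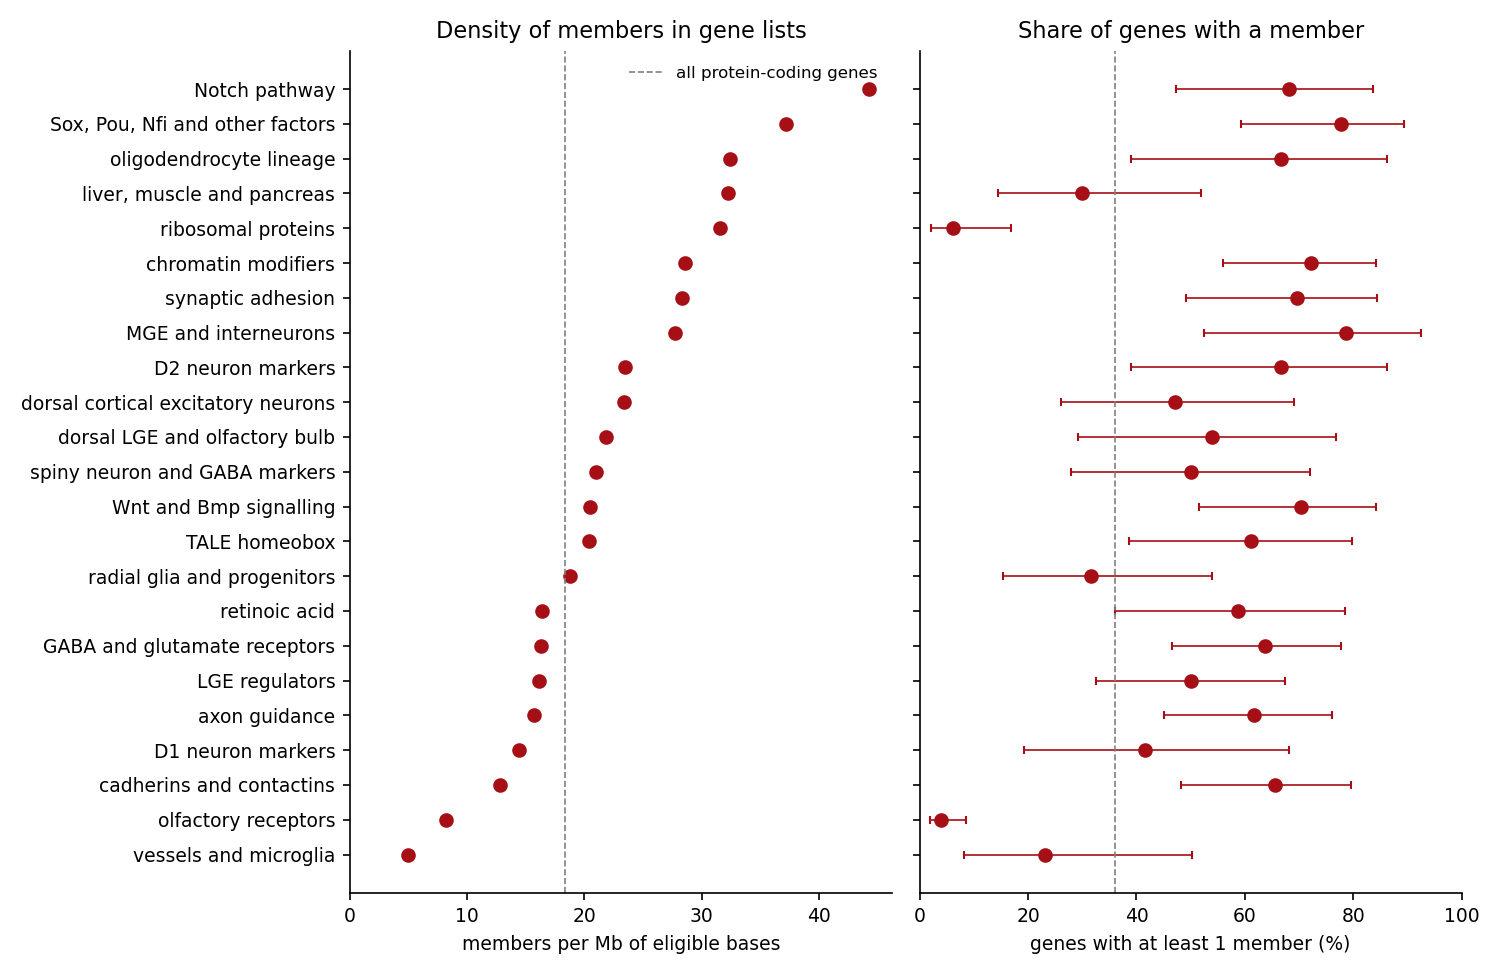
Members per Mb of eligible bases (left) and share of genes with at least 1 member with 95% Wilson intervals (right) for 23 gene lists, ordered by density. The dashed lines mark all protein-coding genes, at 18.4 per Mb and 36.1%. Notch pathway genes have 44.3 per Mb, and vessel and microglia genes 4.94.

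The limits of the rule divide neighbouring peaks by position alone. Just inside the 1 kb limit, Fbl had a summit 1001 bp from the gene end, with folds of 8.12 and 7.12. Just outside, Eif4a3l1 had a summit at 1000 bp, with folds of 8.11 and 7.60. Just inside the 50 kb limit, Grin2a had 6.47 and 5.74 at 49979 bp, and just outside, Phf14 had 5.88 and 8.93 at 50009 bp. The edge of the peak reached within 1 kb of a gene end in 598 members (5.74%).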

How the data were processed

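Peak tables of 2 MEIS2 libraries and 1 no-antibody library were grouped by the labels. Per the file headers, the authors called peaks in each library alone with MACS 2.2.7.1, without a control file, at a q cutoff of 0.05 and with 1 tag kept per position. Per the submitters' processing notes, reads were handled with Bowtie2 2.3.4, Trimmomatic and Picard on mm10, and the MACS2 version there is 2.1.4, unlike the headers. The deposited pileup is a signal, the tags at the summit, and is not adjusted for library size. Fold enrichment, as deposited, is the ratio of the pileup plus 1 to the local expectation plus 1, from which the expected pileup was computed back. The −log10 p-value and −log10 q-value, as deposited, hold within a library. The deposited positions and lengths are 1-based. Because the control has no antibody, off-target binding of an antibody is not seen in it.

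Genes came from the RefSeq table of GRCm38.p6, the assembly of mm10: 47042 genes on chromosomes 1 to 19, of which 20665 are protein-coding. Strand and starts came from RefSeq start windows, which cover part of the genes and none of chromosome 18. Exons and introns were not told apart. Eligible bases are those where a summit would meet the position rule. Density counts a member once per host gene in gene lists and once in bands. Analyses used Python 3.11.15, numpy 2.4.6, pandas 2.3.3 and scipy 1.17.1, figures matplotlib 3.10.9. The overlap and distance code was tested on simulated data against plain loops. The motif share around summits was planned and not run, as it needs a genome; motifs in start windows took its place after the data were seen.

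The members and the 23 lists were chosen with earlier results of these data known. Genes named were the 10 strongest members, the 10 genes with the most members, from each list up to 4 with the strongest member, up to 2 with the most members and up to 2 with the longest eligible bases without any, and Meis1, Meis2, Pbx3, Dlx1, Dlx2, Six3 and Zfp503. Some genes that the rule names are not reported here. Dnmt1 and Arrdc3 were added after their values were seen. No test was made across libraries, since the control is 1 library. Other settings tried were a −log10 q of 5 or more, 50% reciprocal overlap, the top 5000 peaks of each list, each MEIS2 replicate left out, the no-antibody list not used, other distances, protein-coding ends only, and X and Y included.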

Additional observations from a re-analysis of the deposited data

Results flagged for a closer look

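Outside the chromosomes used, 233 peaks on X and Y met the rest of the rule, a signal in data that the comparisons above do not use. Their median folds were 7.04 in replicate 1 and 6.38 in replicate 2. In the same eligible bases of X and Y there were 94 no-antibody peaks.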

How the results depend on the processing

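No result of the report carried a test, so a result is said to move where it left its counting interval or, for counts, changed by over 1.5 times. With −log10 q of at least 5, there were 6081 members, 19.1% of reproducible peaks, in 24.8% of genes, with a 2 to 5 kb over 10 to 20 kb density ratio of 1.23 (1.44 as reported), a median fold of 7.69, a median width of 413 bp, a repeat share of 49.7%, a 5′ share of 53.0% and 14.3% near listed starts. Among the top 5000 peaks of each list, the values were 377 members, 12.5%, 2.05% of genes, a ratio of 0.341, which turns the order of the bands round, a fold of 16.8, 493 bp, 69.7%, 46.1% and 0 members near starts. With 50% reciprocal overlap, the member share was 21.9%, the gene share 32.4%, the ratio 1.31, the fold 6.73 and the repeat share 44.7%. Leaving out a MEIS2 replicate gave 16909 to 19271 members, 47.5% to 48.9% of genes, ratios of 1.27 to 1.44, folds of 5.10 to 5.32, widths of 239 to 275 bp, 5′ shares of 44.7% to 47.3% and start shares of 7.80% to 7.93%; the member share and repeat share have no value then. Without the no-antibody list the member share was 22.5%, the gene share 37.3% and the repeat share 55.2%. With gene ends at 2.5 kb, the member share was 18.1%, the gene share 32.9%, the repeat share 53.0%, the 5′ share 46.4% and the start share 7.62%. With 20 kb as the farthest distance, the member share was 17.3%, the gene share 31.1%, the fold 6.12 and the start share 13.6%. With protein-coding ends only, the member share was 24.8%, the gene share 37.5% and the start share 13.9%. With X and Y, the shares were 22.3% of peaks and 35.3% of genes.

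Without members near listed starts, a setting added after seeing the data like the start share itself, the member share was 20.8%, the gene share 32.9%, the ratio 1.31 and the 5′ share 42.0%; the repeat and start shares have no value then. Of 253 gene-list shares under the alternatives, 204 stayed within their interval, 12 moved up and 37 moved down. Of 1727 member counts of named genes, 1357 stayed within 1.5 times. No paired analysis was possible because the control is 1 library and no result comes from a test. How depth bears on weak members was not tested.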
